A study of Mus musculus with 6 samples.

Results

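The members of the mouse albumin gene family read here were Alb (albumin), Afp (alpha-fetoprotein), Afm (afamin) and Gc (the vitamin D-binding protein). These 4 genes were taken from all 23462 named genes on the array by matching the accession of each non-control probe to mouse RefSeq symbols, and they carried 5 of the 33767 probes that had a symbol, with 2 probes for Alb and 1 for each of the others. The family was chosen by the measured values of Afm in this same contrast, knockout against wild-type, so its values are given as a description, with no test. Only Afm and Alb passed the filter on dim probes, which asks that a probe be well above background, by the scanner software's own call, on at least 3 of the 6 arrays. Afp and Gc did not pass, so nothing below that is said of the tested genes holds for all 4.

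The arrays compared colonic epithelium from male wild-type mice with colonic epithelium from male miR-31 knockout mice, 3 animals of each genotype and 1 single-colour Agilent array per animal. The epithelium was separated by flow into TRIzol before RNA extraction. Strain, age, the way the knockout allele was made and the sorting gate are not given in the sources used here. All 6 arrays lay on 1 slide scanned on 1 day, with the knockout arrays in row 1 and the wild-type arrays in row 2, so slide row and genotype cannot be told apart. Values are the log2 of the processed intensity minus the array's own 75th percentile of intensity, so that 0 is the level of a fairly bright probe on that array. That percentile lay between 3005 and 3539 intensity units, 66.6% to 75.6% of probes were well above background on an array, and no spot was saturated. The labelled tissue was checked with 14 markers of colonic epithelium, all of which were well above background on 3 or more arrays. Epcam, an epithelial adhesion molecule, lay at 2.95 to 3.67 across the arrays and Vil1, an actin bundler of the brush border, at 3.09 to 3.45, with marked spots kept for both. Markers of other cells also met that mark: 6 of 6 immune, 6 of 7 stroma and muscle, and 2 of 4 endothelial genes. The check therefore does not show that the samples were free of other cells. The array does not read miR-31 itself, so the deletion was not checked here.

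MicroRNA miR-31 is processed from a hairpin into a strand from each arm, and its seed, bases 2 to 8, pairs with target transcripts. The mature strands that the knockout is labelled to lack are shown from RefSeq (GRCm38.p6, chromosome 4), with the seed in capitals.
mmu-miR-31-5p: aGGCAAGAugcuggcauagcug
mmu-miR-31-3p: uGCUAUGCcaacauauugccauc

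Proteins of the albumin family are secreted, mainly by the liver, and circulate as carriers. Albumin binds fatty acids, bilirubin, hormones and drugs and holds the osmotic pressure of plasma. Alpha-fetoprotein is its fetal counterpart, made by yolk sac and fetal liver and silenced after birth. Afamin carries vitamin E and also keeps lipid-modified Wnt proteins soluble, a property used to make Wnt-conditioned medium for intestinal organoids. The vitamin D-binding protein carries vitamin D metabolites and scavenges actin released from damaged cells. In liver, transcription of the family depends on C/EBP, FOXA and other hepatic factors. Adult colonic epithelium is not known as a main source of any of the 4 proteins.

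All 4 genes lie on chromosome 5, where Alb, Afp and Afm follow each other directly and Gc lies apart on the opposite strand. The 250 bases before each gene's start are shown because the genes share a chromosome region and a main site of production while their values below differ. They come from RefSeq (GRCm38.p6), read 5′ to 3′ on the gene's own strand, with each TATAAA, the core letters of a TATA box, in capitals.
Afm (chr5:90518699-90518948, plus strand): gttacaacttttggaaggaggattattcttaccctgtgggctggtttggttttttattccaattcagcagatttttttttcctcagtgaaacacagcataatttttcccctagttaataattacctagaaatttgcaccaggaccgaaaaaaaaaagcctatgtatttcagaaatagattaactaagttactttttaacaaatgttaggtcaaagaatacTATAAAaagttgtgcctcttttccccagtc
Alb (chr5:90460620-90460869, plus strand): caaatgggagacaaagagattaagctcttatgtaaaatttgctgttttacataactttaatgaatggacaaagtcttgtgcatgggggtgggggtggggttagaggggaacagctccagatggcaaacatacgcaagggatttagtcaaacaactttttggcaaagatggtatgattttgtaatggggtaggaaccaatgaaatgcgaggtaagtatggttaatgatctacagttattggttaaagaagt
Afp (chr5:90490464-90490713, plus strand): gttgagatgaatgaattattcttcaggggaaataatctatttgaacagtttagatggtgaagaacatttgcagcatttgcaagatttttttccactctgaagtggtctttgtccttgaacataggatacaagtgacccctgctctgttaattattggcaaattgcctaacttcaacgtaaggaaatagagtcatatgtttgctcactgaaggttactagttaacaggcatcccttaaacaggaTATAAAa
Gc (chr5:89457899-89458148, minus strand): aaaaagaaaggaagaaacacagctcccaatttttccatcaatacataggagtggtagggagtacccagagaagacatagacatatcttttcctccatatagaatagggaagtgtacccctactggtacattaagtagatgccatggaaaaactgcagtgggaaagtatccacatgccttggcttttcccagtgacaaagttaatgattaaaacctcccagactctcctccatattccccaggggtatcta
TATAAA was searched for on both strands. It was found on the gene's own strand in Afm, 30 to 25 bases before the start, and in Afp, 7 to 2 bases before, and these letters were not in the windows of Alb and Gc. Of 32851 windows of this length from 27025 genes, 12.4% held it on either strand. A match of letters is a description of the sequence and does not show that a factor binds there. Absence of these letters from a window does not show that a gene lacks a TATA box. Other letters, and bases after the annotated start, were not searched.

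Afm stood high in every knockout array. Its probe (A_52_P425734, for NM_145146) read -2.10, -2.21 and -2.46 in wild-type replicates 1, 2 and 3, and 0.91, 0.77 and 0.43 in knockout replicates 1, 2 and 3. The groups did not overlap: the lowest knockout array exceeded the highest wild-type array by 2.53 on the log2 scale. The wild-type mean was -2.26 ± 0.18 (SD, n = 3) and the knockout mean 0.70 ± 0.25 (SD, n = 3), a log2 change of 2.96 ± 0.17 (SE), or 7.78-fold. In processed intensity, before scaling, the spots read 700.4, 672 and 609 in the wild-type arrays and 6653, 5331 and 4597 in the knockout arrays. All 6 spots were well above background and none was marked as an outlier. Afm was therefore measured in wild-type epithelium too, and its fold is between 2 measured levels and is not a bound. Because these are bulk samples, more cells with Afm transcript and more transcript per cell cannot be told apart.

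The Afm difference was much the same in each pairing of arrays that the layout or the animal numbers allow. The arrays in slide column 1 differed by 3.01 and those in column 2 by 2.98. Animals whose numbers share their leading digits, 2 of each genotype, differed by 3.00. They are the animals on the arrays of columns 1 and 2, so this is not a separate comparison. The remaining animal of each genotype gave a difference of 2.89. Among 24418 features well above background on all 6 arrays, the change of Afm ranked 3rd from the highest and the gap between its groups ranked 2nd. Across all 27916 features tested, 58 (0.208%) were called by limma at an adjusted p below 0.05, of which 41 (0.147% of those tested) were higher and 17 (0.0609%) lower in the knockout. In 18% of features the groups did not overlap, with every knockout array above every wild-type array in 5.56% and below in 12.5%. Those shares are given for scale only, since this contrast is what chose Afm.

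**Figure D1:**
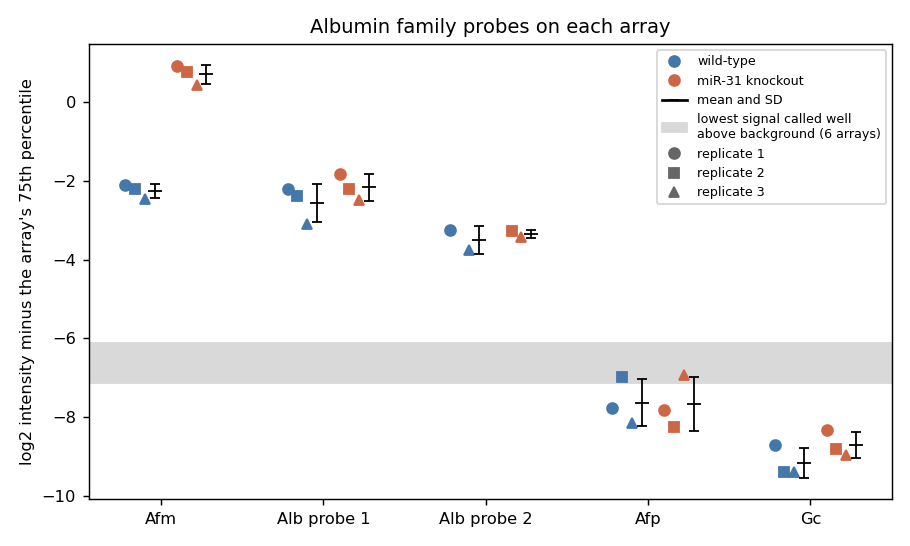
Log2 intensity minus the array's 75th percentile for the 5 family probes on the wild-type and miR-31 knockout arrays, each point 1 array, with the group means. The Afm points separate by 2.53 between the nearest arrays, while the points of both Alb probes, Afp and Gc overlap between genotypes, and 1 point in each genotype is missing for the second Alb probe.

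**Figure D2:**
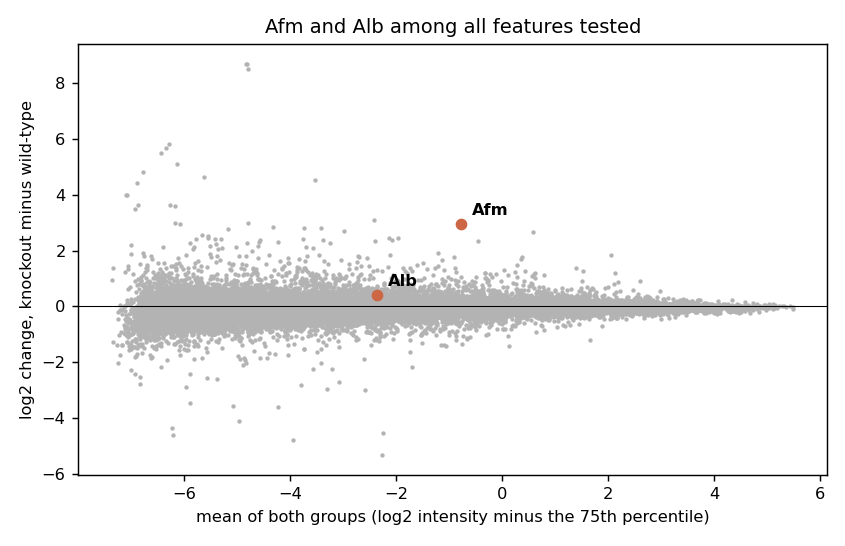
Log2 change, knockout minus wild-type, against the mean level over both groups for the 27916 features tested, with Afm and Alb labelled. Afm lies near the top edge at 2.96 and Alb at 0.40, close to the bulk of the features.

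Alb, which lies in the same cluster as Afp and Afm, did not separate the genotypes. Its brighter probe (A_55_P2843443, for NM_009654) read -2.20, -2.39 and -3.11 in the wild-type arrays and -1.82, -2.20 and -2.48 in the knockout arrays. The means were -2.57 ± 0.48 (SD, n = 3) and -2.17 ± 0.33 (SD, n = 3), a difference of 0.40 ± 0.27 (SE), or 1.32-fold, and knockout replicate 3 lay below wild-type replicates 1 and 2. Among the features well above background on all arrays, 5.07% had a larger change than Alb. The difference was 0.39 in slide column 1, 0.19 in column 2, and 0.13 once wild-type replicate 3, the lowest array, was left out.

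The second Alb probe (A_51_P160713, same accession) was marked as an outlier on wild-type replicate 2 and knockout replicate 1, which leaves 2 arrays in each group. It read -3.24 and -3.75 in wild-type and -3.27 and -3.42 in knockout arrays, a difference of 0.15 with overlapping groups. With the marked spots kept the difference was 0.40. The slide column could not be used as a term, because each unmarked array of this probe lies alone in its column. Alb transcript was thus measured in colonic epithelium by both probes in each genotype, with differences that are no larger than the spread between arrays.

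Afp was at the limit of what the array reads. Its probe (A_51_P510891, for NM_007423) lay at -7.78, -6.98 and -8.15 in wild-type and at -7.83, -8.25 and -6.93 in knockout arrays, and was well above background only in wild-type replicate 2. The spots held 10.2 to 28.1 intensity units. The group means differed by -0.034, against standard deviations of 0.60 and 0.68, and no fold is given. Gc was not well above background on any array. Its probe (A_55_P2022158, for NM_008096) held 4.63 to 11.0 intensity units and lay at -8.72, -9.39 and -9.40 in wild-type and -8.33, -8.82 and -8.97 in knockout arrays. Relative to the lowest signal that was well above background on its own array, each value stood at -2.28 to -2.21, so these values carry no order between genotypes. For Afp and Gc a difference between genotypes was not detectable at this signal.

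Afm and Alb are products of liver, so the other plasma proteins and the markers of hepatocytes were read on the same arrays. Of 27 liver plasma protein genes on the array 21 were tested, and none was called by limma, against 0.208% of all features. Of those 21, 8 were higher and 13 lower in the knockout, with a median log2 change of -0.13 beside -0.061 over all features. Without adjustment, 2 were higher and 4 lower at p below 0.05, where 10.7% of all features passed in either direction. Rbp4, the retinol carrier, read 0.66, 0.68 and 0.74 in wild-type and 1.07, 1.43 and 1.39 in knockout arrays (change 0.60 ± 0.14 SE, adjusted p = 0.231). Apob, the scaffold of intestinal and hepatic lipoproteins, read -2.91, -2.78 and -2.54 against -4.01, -3.73 and -3.26 (change -0.92 ± 0.21 SE, adjusted p = 0.238). Neither passed the test. The fibrinogen chain genes Fga, Fgb and Fgg and the inhibitor heavy chain gene Itih3 were not well above background on any array.

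Of 13 hepatocyte markers 8 were tested and none was called, where 0.208% of all features were, with 4 higher, 4 lower and a median of 0.025. Of the 13, 9 were well above background on 3 or more arrays and 4 on no array. Tat, Cps1, Cyp3a11, Arg1, Tdo2, Asgr1 and Cyp2e1 were each well above background on all 6 arrays. Cyp7a1, the rate-limiting enzyme of bile acid synthesis, F9, a clotting factor, and Asgr2, a subunit of the asialoglycoprotein receptor, were among the 4. Summed on the linear scale in units of each array's 75th percentile, the 13 markers came to 34.5 to 35.2 in wild-type and 30.8 to 35.3 in knockout arrays. Most of that sum was the brighter probe of Slc10a1, a bile acid transporter, which read 4.64 to 4.85 on its unmarked arrays. The other Slc10a1 probe lay at -9.35 to -7.73 and was well above background on no array. The probes disagree, so the level of this gene is not settled. Without Slc10a1 the range was 5.26 to 6.23 in wild-type and 5.89 to 6.74 in knockout arrays.

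**Figure D3:**
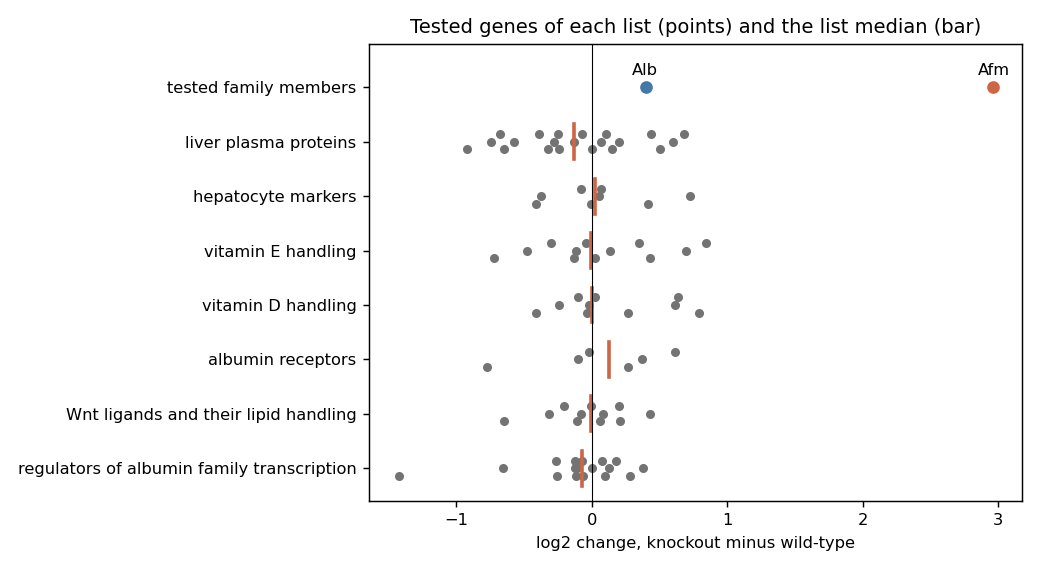
Log2 change, knockout minus wild-type, for the tested genes of each list (points) and the list's median (bar), with the tested family members on their own line. Afm at 2.96 lies to the right of every listed gene shown, and the medians of the lists shown lie between -0.13 and 0.12.

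The ligand side of afamin was read through genes of vitamin E handling and of Wnt secretion. None of the 12 tested vitamin E genes of 15 listed was called, with 6 higher, 6 lower and a median of -0.0072. Abca1, which exports cholesterol and tocopherol from enterocytes, lay at -2.39, -2.40 and -2.18 in wild-type and at -2.06, -1.66 and -1.97 in knockout arrays (change 0.43 ± 0.15 SE, adjusted p = 0.383). Ttpa, the hepatic tocopherol transfer protein, lay at -4.03 and -3.83 in wild-type and -4.54 and -4.76 in knockout arrays, with 1 marked spot left out of each group (change -0.72 ± 0.18 SE, adjusted p = 0.312). None of the 11 tested genes of Wnt ligands and their lipid handling, of 17 listed, was called, with 5 higher, 6 lower and a median of -0.0060. Wls, the carrier that brings Wnt proteins to the cell surface, had a change of -0.31 ± 0.18 (SE, adjusted p = 0.587), and Porcn, the enzyme that adds the lipid, of -0.20 ± 0.14 (SE, adjusted p = 0.642). Wnt6 had the smallest p of the list (change 0.43 ± 0.16 SE, adjusted p = 0.420).

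For the ligands of Gc, 10 of 14 genes of vitamin D handling were tested. None was called, 5 were higher and 5 lower, and the median was 0.0032. Cyp27b1, which makes the active hormone, had a change of 0.79 ± 0.30 (SE, adjusted p = 0.413), and Cyp2r1, a vitamin D 25-hydroxylase, one of -0.41 ± 0.18 (SE, adjusted p = 0.484). Of 8 genes for albumin receptors 6 were tested, with 3 higher, 3 lower, none called and a median of 0.12. Cubn, the endocytic receptor cubilin, which takes up both albumin and the vitamin D-binding protein, lay at -3.20 to -2.66 in wild-type and at -3.63, -2.98 and -0.40 in knockout arrays. The high value belonged to knockout replicate 3 alone (change 0.61 ± 0.76 SE, adjusted p = 0.820).

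Regulators of the family's transcription were measured in both genotypes. Of 20 listed genes 17 were tested, 7 were higher and 10 lower, none was called, and the median was -0.070. Zhx2, a repressor of Afp in adult mouse liver, had a change of 0.38 ± 0.25 (SE, adjusted p = 0.641). Trp53, whose product represses Afp in liver, had the smallest p of the list (change 0.28 ± 0.12 SE, adjusted p = 0.467). Dbp, a clock-driven activator named for its site in the Alb promoter, lay at 2.06, 1.31 and -0.83 in wild-type and at -0.68, -0.25 and -0.80 in knockout arrays. Its wild-type arrays spread over more of the scale than the difference between groups (change -1.42 ± 0.68 SE, adjusted p = 0.512).

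Around the family on chromosome 5, the 6 genes on each side of Gc and of the Alb, Afp and Afm cluster gave 24 neighbours, of which 12 were on the array and 9 were tested. None was called, 3 were higher and 6 lower, and the median was -0.20. Albfm1, an albumin superfamily member and the nearest tested gene beyond Afm, lay at -6.21, -6.38 and -6.27 in wild-type and at -6.51, -7.18 and -6.73 in knockout arrays, where it was not well above background. Its knockout values were raised to the lowest signal well above background on each array, which gave a 1.13-fold lower level there, a rough lower limit on the fold. Albfm1 was not called (means -6.29 and -6.81, adjusted p = 0.398). That lowest signal is not a strict floor, since a spot can lie above it and miss the call. Cox18, a mitochondrial insertase, had a change of 0.57 ± 0.15 (SE, adjusted p = 0.290). Cxcl5, a neutrophil chemokine, read -4.81, -3.61 and -3.79 in wild-type and -7.75, -7.96 and -4.35 in knockout arrays. Knockout replicates 1 and 2 were not well above background, so their values are not measured levels and the size of the difference is not known from them. Cxcl5 was not called (adjusted p = 0.394). It was called without knockout replicate 3 (adjusted p = 0.0138). There, with the knockout values raised to the same lowest signal, Cxcl5 was 4.87-fold lower in the knockout (means -4.07 and -6.35). This fold is a rough lower limit and not a measured size. The knockout mean before raising was -7.85. The fit with the slide column as a term also called Cxcl5 (adjusted p = 0.0252). Knockout replicate 3 is alone in its column, so that fit takes no genotype difference from it and the calls are not separate. No tested neighbour had a change as large as that of Afm in the same direction.

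**Figure D4:**
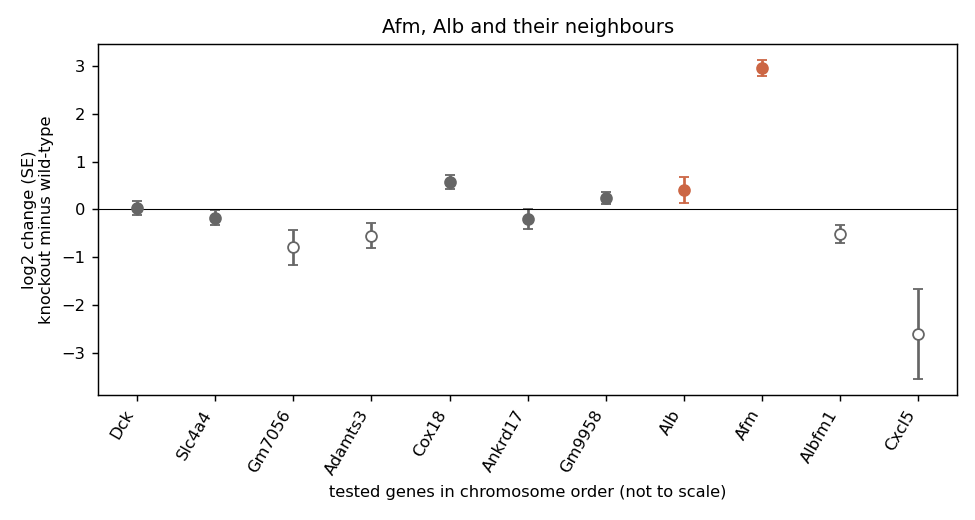
Log2 change with its standard error, knockout minus wild-type, for the tested genes in chromosome order (spacing not to scale), family members coloured, with open points for genes not well above background on every array, whose plotted size is not a measured one. Afm stands at 2.96 and Alb at 0.40, and the open points are Gm7056, Adamts3, Albfm1 and Cxcl5.

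The named features whose profile over the 6 arrays was most like that of Afm were found by the root-mean-square distance between log2 values centred on each feature's own mean, over 10982 features compared. Of the 6 closest, 4 were well above background on every array: the zinc finger gene Zfp963 (distance 0.316), the mast cell chymase gene Cma2 (0.333), the lipid kinase gene Pik3c2g (0.419) and the thrombin receptor gene F2r (0.429). They lie on chromosomes 8, 14, 6 and 13. Zfp963 had a change of 2.42 ± 0.16 (SE), Cma2 of 2.82 ± 0.19, Pik3c2g of 3.09 ± 0.42 and F2r of 2.71 ± 0.23. Probes of Pik3c2g disagreed in size, since its other 2 probes gave changes of 1.44 and 4.35. The zinc finger genes Zfp600 and Zfp981, both on chromosome 4, were also among the 6. All 3 wild-type arrays read their tested probes as not well above background, so they have no measured distance or rank. Counted against the lowest signal well above background on each array, they were 4.91-fold and 5.79-fold higher in the knockout. These folds are rough lower limits and not measured sizes, since that signal is not a strict floor. Other probes of Zfp600 disagreed. The one well above background on all arrays, but with 2 knockout spots marked, gave a change of 0.20. The remaining probes gave 4.22 and 4.17, and their signal over background is not given here. A measure of likeness that spans both genotypes is dominated by the genotype difference, and it was chosen with that difference known.

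**Figure D5:**
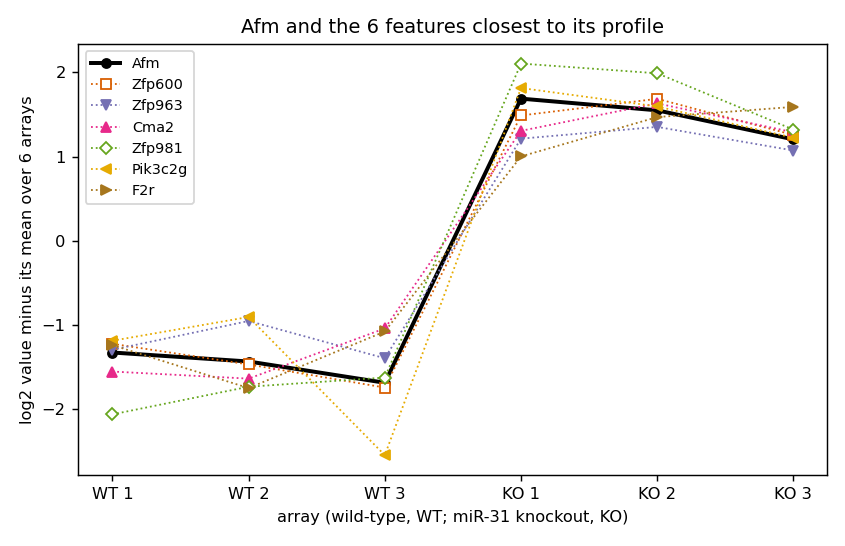
Log2 value minus the feature's own mean over the 6 arrays, for Afm and the 6 named features closest to it, across wild-type and knockout arrays. Every line is below 0 on the 3 wild-type arrays and above 0 on the 3 knockout arrays, and open symbols mark Zfp600 and Zfp981, whose wild-type values are not well above background.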

How the data were processed

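Scanner files of 6 single-colour Agilent arrays, 1 per mouse, were used. The deposited processed intensity (background-subtracted by Agilent Feature Extraction, version 11.5.1.1 per the file headers and 10.7 per the submitters' processing notes) was taken as log2 minus each array's 75th percentile over non-control spots. Marked spots, 4.95% to 17.3% per array, were removed, and spots of a probe were averaged. The deposited series table holds intensity on a linear scale, uncentred, with column medians of 230.0 to 262, and 99.7% of its values lay within 0.01 log2 of the scanner values. A probe was tested if well above background on at least 3 arrays with at least 2 unmarked arrays per group, and a gene was read by its brightest probe. All 27916 features were fitted with limma 3.58.1 (lmFit and eBayes, R 4.3.3), with Benjamini-Hochberg adjustment over all of them and 0.05 as the threshold. The fit was tested on simulated data. Accessions were named through RefSeq (GRCm38.p6), from which no array coordinate was taken, since the array design names mm9.

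The members and gene lists were chosen with earlier results of these data known. Genes named by rule are the 4 members, up to 4 of each list by smallest unadjusted p together with any called, and the 6 named features closest to Afm. The markers and the genes given as not above background were named outside that rule, with their values seen. Titles give separate animals, and p-values measure the spread between these mice only. The files used here hold no mean spot signal, so the alternative background correction (normexp, offset 50) used the median signal.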

Additional observations from a re-analysis of the deposited data

How the results depend on the processing

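The Afm change lay between 2.82 and 3.00 under the other settings and between 2.86 and 3.10 when any 1 array was left out, and that of Alb between 0.26 and 0.42 and between 0.13 and 0.58. For the second Alb probe the fit with the slide column as a term returned -0.17. That value is not a genotype difference, since each unmarked array of this probe lies alone in its column. Gc, which is below background, differed by -0.035 after normexp and 0.019 after quantile normalization. The 58 called features became 100 with normexp, 35 with no filter on dim probes, 33 with a probe well above background on all 6 arrays, 106 with trend and robust variance, 103 with array weights and 216 with the slide column as a term, and 22 (without wild-type replicate 1) to 116 (without knockout replicate 3) when 1 array was left out. Of the 8 lists refitted (the marker lists other than hepatocyte were not), only the neighbours had a member called under any setting. Medians moved to -0.0012 for liver plasma proteins with no filter and, with the slide column, to 0.23 for hepatocyte markers, -0.38 for albumin receptors and -0.22 for vitamin D handling. The median of the neighbours was -0.11 with normexp, 0.030 with all 6 arrays required, and -0.32 with the animal number or the slide column as a term, the last with 1 member called, Cxcl5. With 1 array left out, the medians ranged from -0.21 to -0.021 for liver plasma proteins, -0.16 to 0.17 for hepatocyte markers, -0.031 to 0.11 for vitamin E handling, -0.18 to 0.051 for Wnt ligands, -0.25 to 0.40 for albumin receptors, -0.18 to 0.24 for vitamin D handling and -0.40 to -0.15 for neighbours, with 0 to 1 neighbours called. The causes were not tested. The labels give no replicate numbers, and the numbers used here only name arrays. Signal over background limits Afp and Gc, and 3 arrays per group limit the precision of all values.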

Other observations

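Knockout replicate 3, the array with the high Cubn value, was also highest for Sis, Fabp6 and Cyp3a11, which were picked out after their values were seen. Sis, the sucrase-isomaltase gene, lay at 0.41 on that array and between -2.41 and -1.64 on the 4 others with an unmarked spot. Fabp6, the ileal bile acid-binding protein gene, lay at 0.88 there and between -0.57 and 0.19 on the others. Cyp3a11, a drug-metabolising cytochrome from the hepatocyte list that intestine also expresses, lay at -0.38 on that array and between -2.66 and -1.69 on the others. Other enterocyte genes were not highest there: Alpi, intestinal alkaline phosphatase, lay at 0.13 against 0.71 on knockout replicate 2, Gata4 at -5.46 against -4.37 on wild-type replicate 1, and Fabp2 at 4.03 against 4.04 on wild-type replicate 3. The summed level of the enterocyte list without Fabp2 was 4.29 on that array, in units of the 75th percentile, and 2.02 to 2.69 on the others. With Fabp2 it was 20.7 on that array and 15.9 to 18.7 on the others. Both sums hold Sis and Fabp6, so they are not separate from the genes picked out above. On the same array Afm was at 0.43, the lowest of its 3 knockout values, and Alb at -2.48.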
